A study of Mus musculus with 15 samples.

Results

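Nodal and activin pathway genes were followed as 9 genes chosen by name: the ligand genes Nodal, Gdf3, Gdf1 and Inhbb, the antagonists Lefty1 and Lefty2, the co-receptor gene Tdgf1, the receptor gene Acvr2b and the nuclear factor gene Foxh1. All 9 of the 9 are among the 23845 genes in the files, and all 9 passed the count filter that 14335 genes passed. The RNA was taken from the mouse embryonic stem cell line E14, 48 h after transfection of small interfering RNA. All 15 samples had 400 ng of small interfering RNA with 4 uL of Lipofectamine, 16 h of incubation and gelatin at 0.2%. The small interfering RNA was directed against Ddx10 (Ddx10KD), Ddx24 (Ddx24KD), Ddx27 (Ddx27KD) or Ddx54 (Ddx54KD), which encode DEAD-box RNA helicases, or against the fluorescent reporter EGFP (EGFPKD, the control). Each of the 5 groups had 3 biological replicates, and all 15 libraries were made from poly(A) RNA. The knockdowns were transient and partial, and the targeted transcript remained at 18.5% ± 4.25 (Ddx10), 30.8% ± 4.89 (Ddx24), 22.7% ± 0.818 (Ddx27) and 28.0% ± 4.68 (Ddx54) of its EGFPKD level in its own knockdown (SD, n = 3).

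Nodal and the activins are secreted dimers of the TGF-beta family that bind type I and type II receptors, which phosphorylate SMAD2 and SMAD3. Nodal also needs a co-receptor of the EGF-CFC family, and the LEFTY proteins, which are themselves targets of the pathway, block it outside the cell. The pathway is active in mouse embryonic stem cells in culture, and in the embryo it patterns the epiblast and drives formation of the primitive streak.

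The libraries held 26836946 to 27708782 expected counts (reads per gene as estimated by RSEM, with no scaling for depth) and 16847 to 17168 genes with at least 1 count. On the first principal component of log2 CPM (CPM being counts divided by the TMM-scaled library size), which held 42.0% of the variance, the 12 knockdown libraries lay between -20.1 and 2.67 and the 3 EGFPKD libraries between 39.7 and 45.2. The 4 comparisons with EGFPKD share the same 3 control libraries. The 10 embryonic stem cell markers were all detected, of which 3, 3, 4 and 2 were called lower and 0, 1, 1 and 1 higher in Ddx10KD, Ddx24KD, Ddx27KD and Ddx54KD. Of all genes, 14.5%, 13.1%, 16.1% and 11.2% were called lower and 16.5%, 15%, 17.3% and 13.1% higher. Zfp42 was lower in all 4, Nanog and Tfcp2l1 in Ddx10KD, Ddx24KD and Ddx27KD, and Pou5f1 in Ddx27KD and Ddx54KD. Sox2 was higher in Ddx24KD, Ddx27KD and Ddx54KD. With the replicate number as a block, 5, 4, 5 and 3 were called lower and 2, 2, 2 and 3 higher. The markers summed to 7316 to 7797 TPM (transcript abundance scaled for length and depth) in knockdown libraries and 7608 to 7726 TPM in EGFPKD libraries. Dppa5a alone was at 2237 to 2820 TPM. Of the 7 fibroblast markers, Postn was at 0 in all groups, and the summed level was 10.7 to 16.8 TPM in knockdown libraries and 17.5 to 25.6 TPM in EGFPKD libraries, nearly all of it Thy1. The 7 primitive endoderm markers summed to 3.64 to 9.33 TPM in knockdown and 4.07 to 5.79 TPM in EGFPKD libraries, and the 7 trophoblast markers to 19.8 to 36.6 TPM and 23.6 to 39.0 TPM in the same order of groups. Among these, Sox7 was called lower in all 4 knockdowns (log2 changes -0.81, -1.03, -0.93 and -0.86 in Ddx10KD, Ddx24KD, Ddx27KD and Ddx54KD) and Gata6 higher in Ddx10KD (1.44; with the block also in Ddx27KD). Krt8 was called lower in Ddx24KD (-0.85) and Ddx27KD (-0.64), and with the block in all 4. Other markers of these 2 lists were called only with the block. Krt7 was then higher in 3 knockdowns (log2 changes 0.59 to 0.95 over all 4) and Gata3 in 1. Krt18 and Cubn were lower in 1 knockdown each. The part of these markers in the results was not tested, and in bulk RNA fewer cells that express a gene and less RNA per cell cannot be told apart.

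The 2 Lefty genes lie side by side on the forward strand of chromosome 1 (mm10, GENCODE M21), Lefty2 at 180893108 to 180899103 and Lefty1 at 180935022 to 180938400. Their coding sequences are both 1104 bases long and agree at 1014 positions (91.8%), with a longest identical run of 140 bases. Reads of the 2 genes can be told apart only where they differ. Stretches of 50 bases shared with the other gene made up 17.9% of those in the Lefty1 transcript and 11.6% of those in the Lefty2 transcript, so part of the reads was divided between them by estimation. Tdgf1 (chromosome 9, 110939603 to 110946158, reverse strand) shared 12.5% of its stretches with its pseudogene Tdgf1-ps1. Nodal (chromosome 10, 61417972 to 61425338, forward), Inhbb (chromosome 1, 119415465 to 119422248, reverse), Foxh1 (chromosome 15, 76668225 to 76669948, reverse) and Acvr2b (chromosome 9, 119402118 to 119434995, forward) shared none with another gene, and Gdf3 (chromosome 6, 122605403 to 122610087, reverse) at most 1.2%. Acvr2b overlaps an annotated antisense gene, and the strandedness of the libraries is not given in the sources used here.

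The 250 bases before the annotated start, from RefSeq on GRCm38.p6 (the assembly of mm10), were available for Nodal, Inhbb, Tdgf1, Acvr2b and, with 2 starts, Gdf1. They were searched on both strands for the FOXH1 motif AATNNACA and for the SMAD motifs CAGAC and CAGACA, of which the shorter is contained in the longer. Nodal and Inhbb are shown as 2 members that changed in opposite directions in all 4 knockdowns, and Tdgf1 as the member whose window held the FOXH1 motif. Motif matches are in capitals.
Nodal, chr10:61417722-61417971, forward strand: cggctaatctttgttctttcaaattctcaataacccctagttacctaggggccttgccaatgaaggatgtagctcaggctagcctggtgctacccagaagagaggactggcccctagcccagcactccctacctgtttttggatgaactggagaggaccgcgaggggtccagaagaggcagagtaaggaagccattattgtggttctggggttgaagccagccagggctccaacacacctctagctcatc
Inhbb, chr1:119422249-119422498, reverse strand: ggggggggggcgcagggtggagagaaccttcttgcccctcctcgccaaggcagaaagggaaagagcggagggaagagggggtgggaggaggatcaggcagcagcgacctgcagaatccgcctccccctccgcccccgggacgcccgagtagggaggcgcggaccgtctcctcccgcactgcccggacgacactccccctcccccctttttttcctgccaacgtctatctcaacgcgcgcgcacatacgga
Tdgf1, chr9:110946159-110946408, reverse strand: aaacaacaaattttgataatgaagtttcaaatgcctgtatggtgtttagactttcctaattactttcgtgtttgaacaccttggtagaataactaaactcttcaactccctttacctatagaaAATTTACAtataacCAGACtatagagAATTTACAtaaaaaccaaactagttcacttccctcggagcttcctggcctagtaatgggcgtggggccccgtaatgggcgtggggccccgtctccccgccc
The Tdgf1 window held 2 matches to AATNNACA and 1 to CAGAC, and the Nodal and Inhbb windows held none of the 3 motifs. Of the windows not shown, those of Gdf1 held 2 matches and 1 match to CAGAC, and that of Acvr2b held 1. Across 32851 promoter windows of the same length, 10.9% held AATNNACA, 42.2% held CAGAC and 17.1% held CAGACA. A match describes the letters only, and no binding data were used.

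In control cells the co-receptor was by far the most abundant of the 9 transcripts per unit length. Tdgf1 was at 673 ± 26.0 TPM in EGFPKD libraries (SD, n = 3, as for all levels), followed by Lefty2 at 171 ± 56.5, Gdf3 at 109 ± 5.16, Lefty1 at 103 ± 18, Foxh1 at 78.6 ± 6.88 and Nodal at 66.5 ± 5.53 TPM. Inhbb at 23.9 ± 2.76, Acvr2b at 15.5 ± 0.892 and the Gdf1 row at 6.78 ± 0.386 TPM were the lowest. Gdf3 and Lefty1 differed by less than their spread, and the Lefty2 libraries were the most variable of the set.

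Nodal, the ligand that gives the pathway its name, was higher in all 4 knockdowns. Its level was 125, 107 and 131 CPM in the 3 Ddx10KD libraries, 135, 98.7 and 138 CPM in Ddx24KD, 160.3, 141 and 123 CPM in Ddx27KD and 118, 104 and 117 CPM in Ddx54KD, against 73.4, 64.1 and 66.7 CPM in EGFPKD (replicates 1 to 3 in each). Every knockdown library was above every control library. The log2 change against EGFPKD was 0.83 ± 0.12 in Ddx10KD (SE; adjusted p = 8.21e-05), 0.86 ± 0.12 in Ddx24KD (6.81e-05), 1.05 ± 0.12 in Ddx27KD (6.62e-06) and 0.73 ± 0.12 in Ddx54KD (3.72e-04). These and all later adjusted p come from the edgeR quasi-likelihood test with Benjamini-Hochberg adjustment over all 14335 genes, and a gene is called where the adjusted p is under 0.05. Nodal was called in all 4 knockdowns in each of the 26 alternatives run.

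**Figure D1:**
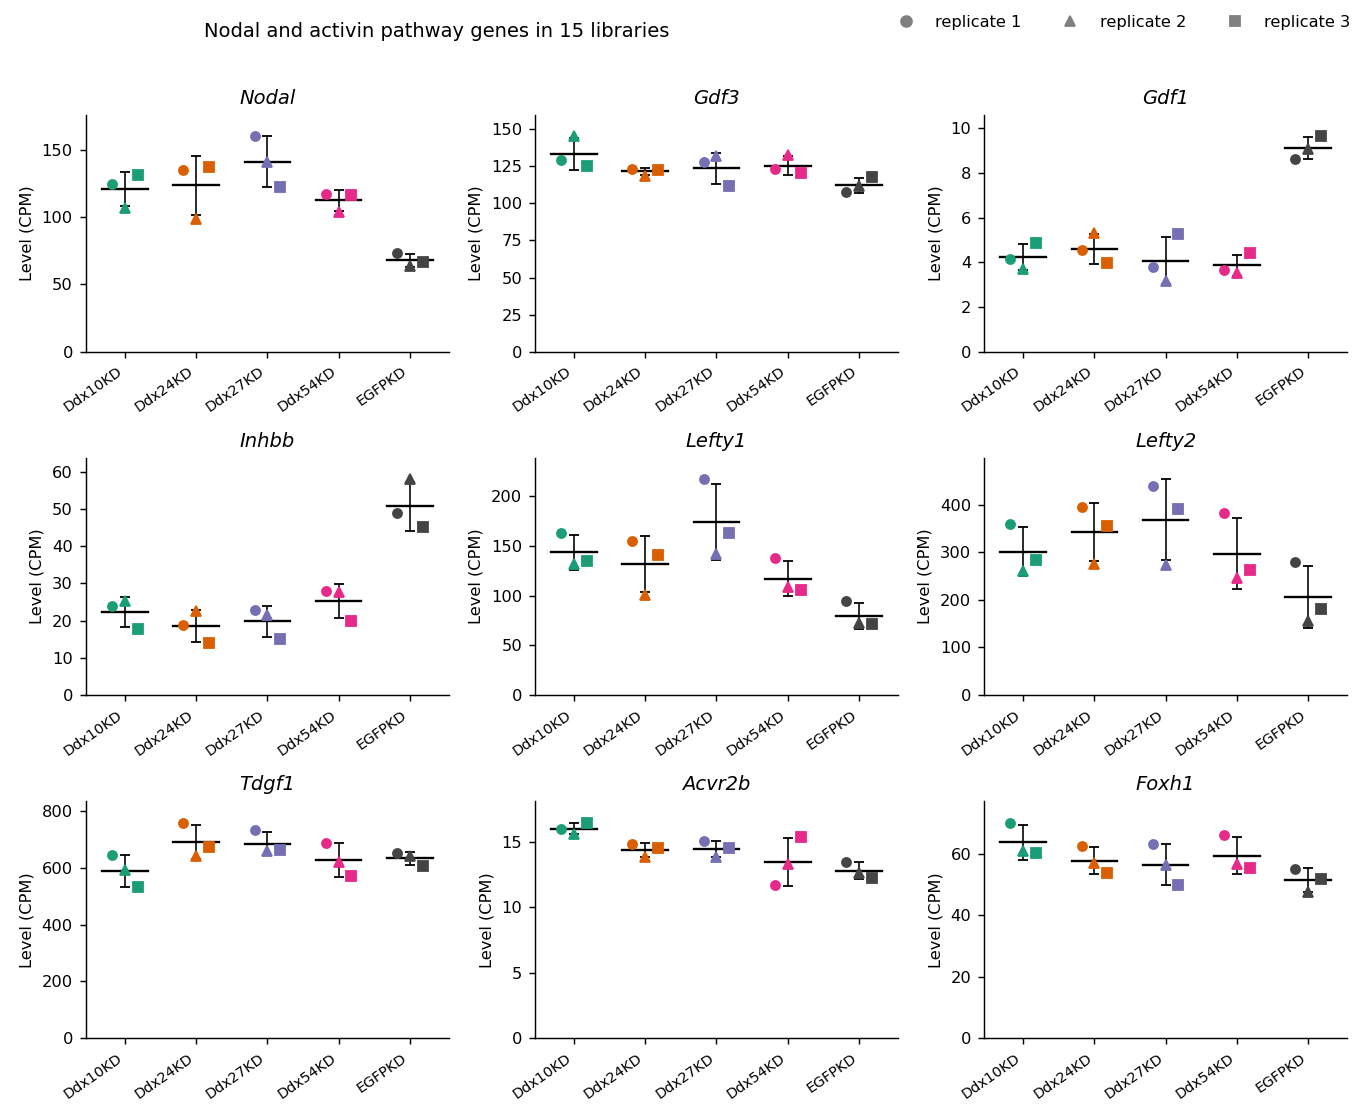
Level of the 9 genes in each library (y axis, TMM-scaled CPM from 0) by group (x axis), with symbols for the replicate number, a bar for the mean and whiskers for the SD of 3 libraries. Nodal and Lefty1 lie above, and Gdf1 and Inhbb below, all 3 EGFPKD libraries in every knockdown library; Lefty2 overlaps the control in every knockdown.

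Inhbb, which encodes the beta B subunit of activin B and of inhibin B, went the other way and fell in all 4 knockdowns. It was at 24, 25.2 and 17.8 CPM in Ddx10KD, 18.9, 22.7 and 14.1 CPM in Ddx24KD, 23.0, 21.4 and 15 CPM in Ddx27KD and 27.9, 27.7 and 19.9 CPM in Ddx54KD, against 49.0, 58.0 and 45.2 CPM in EGFPKD. No knockdown library reached the lowest control library, and replicate 3 was the lowest of its group in all 5 groups. Inhbb had a log2 change of -1.19 ± 0.18 in Ddx10KD (SE; edgeR adjusted p = 1.55e-04), -1.45 ± 0.19 in Ddx24KD (3.52e-05), -1.36 ± 0.18 in Ddx27KD (3.96e-05) and -1.01 ± 0.18 in Ddx54KD (8.19e-04). These calls also stood in each of the 26 alternatives. The fibroblast marker Thy1 was lower in the same 4 comparisons, with log2 changes of -0.73, -0.73, -0.76 and -0.48 in Ddx10KD, Ddx24KD, Ddx27KD and Ddx54KD. Col1a1, the other fibroblast marker tested, reached at most 1.14 TPM. It was not called (log2 changes -0.16 to 0.57), and with the block it was called higher in Ddx27KD. The remaining fibroblast markers reached at most 0.17 TPM. The part of Thy1 in the Inhbb values was not tested.

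The row named Gdf1 was likewise lower in every knockdown. Gdf1 is a ligand that can pair with Nodal, but the row's transcript, 2728 bases long, is one that GENCODE assigns to Cers1, a ceramide synthase gene whose transcript also spans the Gdf1 coding region (Gdf1: chromosome 8, 70329817 to 70331587, forward strand). All 50-base stretches (100%) of the Gdf1 transcript are also in Cers1, the files have no separate Cers1 row, and the region overlaps Upf1 on the other strand, so messages of the 2 genes cannot be told apart. The row was at 4.13, 3.69 and 4.84 CPM in Ddx10KD, 4.54, 5.30 and 3.97 CPM in Ddx24KD, 3.81, 3.17 and 5.25 CPM in Ddx27KD and 3.66, 3.51 and 4.41 CPM in Ddx54KD, against 8.63, 9.08 and 9.64 CPM in EGFPKD. All knockdown libraries lay below all control libraries, on 87 to 262 expected counts per library, the lowest counts of the 9 genes. On the log2 scale the change was -1.11 ± 0.16 in Ddx10KD (SE; edgeR adjusted p = 9.82e-05), -0.99 ± 0.16 in Ddx24KD (3.06e-04), -1.16 ± 0.16 in Ddx27KD (5.70e-05) and -1.24 ± 0.16 in Ddx54KD (5.67e-05). The call stood in each of the 25 alternatives in which the row was tested; the filter of 10 CPM removes it.

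Gdf3, a ligand of the same family that is abundant in embryonic stem cells, changed little. It ranged from 111 to 145 CPM in the 12 knockdown libraries and from 107 to 118 CPM in the 3 EGFPKD libraries. The Ddx10KD libraries, at 129, 145 and 125 CPM, lay above every control library, as did those of Ddx54KD. Those of Ddx24KD did so narrowly, with a lowest value of 118.55 CPM against a highest control of 117.5 CPM. Ddx27KD overlapped the control, through its replicate 3 at 111 CPM. The log2 change was 0.25 ± 0.07 in Ddx10KD (SE; edgeR adjusted p = 0.0108) and 0.11, 0.14 and 0.16 in Ddx24KD, Ddx27KD and Ddx54KD, which were not called (adjusted p = 0.227, 0.126 and 0.0943). With the replicate number as a block, the adjusted p was 0.04998 in Ddx27KD and 0.0285 in Ddx54KD. The Ddx10KD call was lost without Ddx10KD replicate 2 (0.0680) or EGFPKD replicate 1 (0.0564), and in Ddx27KD a call was gained without Ddx27KD replicate 3 (0.0260).

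Lefty1, a secreted inhibitor of Nodal, was higher in all 4 knockdowns. Its level was 163, 132 and 135 CPM in Ddx10KD, 155, 100.5 and 140.5 CPM in Ddx24KD, 217, 142 and 163 CPM in Ddx27KD and 137, 109 and 105 CPM in Ddx54KD, against 94.8, 72.1 and 71.7 CPM in EGFPKD. Every knockdown library was above every control library, and replicate 1 was the highest of its group in all 5 groups. Lefty1 had a log2 change of 0.85 ± 0.17 in Ddx10KD (SE; edgeR adjusted p = 0.00138), 0.73 ± 0.17 in Ddx24KD (0.00467), 1.13 ± 0.17 in Ddx27KD (1.16e-04) and 0.56 ± 0.17 in Ddx54KD (0.0260). The Ddx54KD call was lost without Ddx54KD replicate 1 (0.105), EGFPKD replicate 2 (0.0980) or EGFPKD replicate 3 (0.0971), and with limma on log2(TPM + 1) (0.0513).

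Lefty2, its neighbour and also an inhibitor of Nodal, had higher means in every knockdown but a wide spread. It was at 358, 259.8 and 284 CPM in Ddx10KD, 395, 276 and 355 CPM in Ddx24KD, 439, 273 and 391 CPM in Ddx27KD and 382, 246 and 262 CPM in Ddx54KD, against 280.3, 156 and 181.5 CPM in EGFPKD. The groups overlap, because control replicate 1 lay above at least 1 library of each knockdown. The log2 change was 0.55 ± 0.22 in Ddx10KD (SE; edgeR adjusted p = 0.0708), 0.73 ± 0.22 in Ddx24KD (0.0205), 0.84 ± 0.22 in Ddx27KD (0.00792) and 0.53 ± 0.22 in Ddx54KD (0.0925), so that Lefty2 was called in Ddx24KD and Ddx27KD. The Ddx24KD call was lost without Ddx24KD replicate 1 (0.0871), Ddx24KD replicate 3 (0.0560), EGFPKD replicate 2 (0.1005) or EGFPKD replicate 3 (0.0811). Without EGFPKD replicate 1, the change was 0.83 in Ddx10KD (0.0115) and 0.82 in Ddx54KD (0.0176), both then called, and Ddx10KD was also called when fitted with EGFPKD alone (0.0324).

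The Lefty2 spread followed the replicate number. Replicate 1 was the highest and replicate 2 the lowest Lefty2 library in 5 of 5 groups, and across all genes the libraries of 1 number deviated together. Set against the control library of the same number, Lefty2 was 1.28-, 1.67- and 1.57-fold in Ddx10KD, 1.41-, 1.77- and 1.96-fold in Ddx24KD, 1.57-, 1.76- and 2.16-fold in Ddx27KD and 1.36-, 1.58- and 1.45-fold in Ddx54KD (replicates 1 to 3). All 12 of these ratios were above 1. With the replicate number as a block in the model, Lefty2 was called in Ddx10KD (edgeR adjusted p = 7.54e-06) and Ddx54KD (1.98e-05) too. The same ratios ran from 1.54 to 2.20 for Nodal and from 1.39 to 2.29 for Lefty1, above 1 in 12 of 12 pairs each, and from 0.312 to 0.571 for Inhbb and 0.349 to 0.584 for the Gdf1 row, below 1 in 12 of 12 pairs each. The 12 ratios of a gene use the same 3 control libraries, so they are not 12 independent values. The share of all genes with such ratios was not counted.

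**Figure D2:**
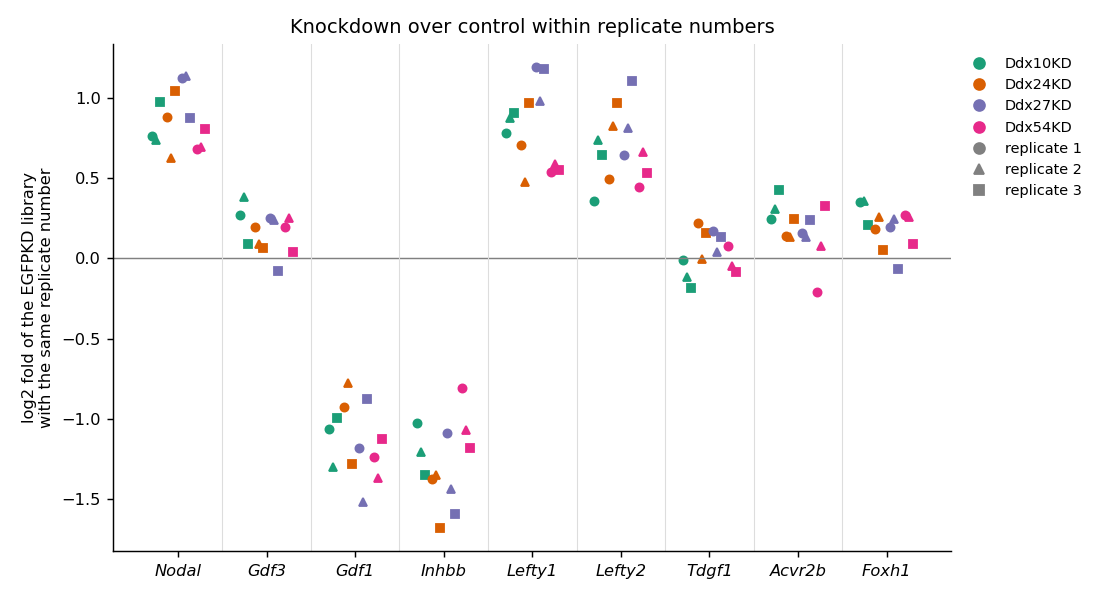
Log2 fold of each knockdown library over the EGFPKD library with the same replicate number (y axis) for the 9 genes (x axis), coloured by knockdown, with symbols for the replicate number. All 12 values of Nodal, Lefty1 and Lefty2 lie above 0 and all 12 of Gdf1 and Inhbb below it, while Tdgf1 has 6 above and 6 below.

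As Lefty reads are divided by estimation, the 2 genes were also counted as 1 feature, an alternative chosen after the data were seen. The summed level was 444 ± 68.4 CPM in Ddx10KD, 474 ± 88.9 in Ddx24KD, 542 ± 120.0 in Ddx27KD and 414 ± 91.8 in Ddx54KD, against 285 ± 78.8 CPM in EGFPKD. The log2 change was 0.64 ± 0.20 in Ddx10KD (SE; edgeR adjusted p = 0.0245), 0.73 ± 0.20 in Ddx24KD (0.0127), 0.92 ± 0.20 in Ddx27KD (0.00226) and 0.54 ± 0.20 in Ddx54KD (0.0637). The share of Lefty1 in the Lefty total, on the TPM scale, was 42.7% ± 1.4 in Ddx10KD, 37.4% ± 1.07 in Ddx24KD, 42.6% ± 2.84 in Ddx27KD and 38.4% ± 2.43 in Ddx54KD, against 38.2% ± 3.73 in EGFPKD. The ratio of Nodal to the Lefty total was 0.275 ± 0.037 in Ddx10KD, 0.268 ± 0.0164 in Ddx24KD, 0.268 ± 0.0596 in Ddx27KD and 0.284 ± 0.0461 in Ddx54KD, against 0.251 ± 0.0427 in EGFPKD. The means of this ratio differed by less than the spread between libraries, which runs over the replicate numbers. For replicates 1 to 3 the ratio was 0.2405, 0.271 and 0.314 in Ddx10KD and 0.251, 0.2695 and 0.283 in Ddx24KD. It was 0.244, 0.336 and 0.224 in Ddx27KD and 0.233, 0.295 and 0.323 in Ddx54KD, against 0.203, 0.282 and 0.269 in EGFPKD. The ratio was not tested with the replicate number as a block.

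Tdgf1, also called Cripto, encodes the co-receptor through which Nodal reaches its receptors, and it was not called in any knockdown. It ranged from 533 to 758 CPM in knockdown libraries and from 605 to 651 CPM in EGFPKD libraries. The log2 change was -0.10 in Ddx10KD (95% confidence interval -0.27 to 0.07; edgeR adjusted p = 0.367), 0.13 in Ddx24KD (-0.04 to 0.30; 0.253), 0.11 in Ddx27KD (-0.05 to 0.28; 0.291) and -0.01 in Ddx54KD (-0.18 to 0.16; 0.925). With the replicate block Tdgf1 was called higher in Ddx24KD (0.0220) and Ddx27KD (0.0335), at log2 changes of 0.13 and 0.11.

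Acvr2b, a type II receptor that binds activins and Nodal, and Foxh1, which partners SMAD2 and SMAD3 on DNA, were called higher in Ddx10KD. Acvr2b was at 16.0, 15.6 and 16.4 CPM in Ddx10KD, against 13.5, 12.6 and 12.3 CPM in EGFPKD, a log2 change of 0.33 ± 0.09 (SE; edgeR adjusted p = 0.0115) with no overlap. In Ddx24KD, Ddx27KD and Ddx54KD its log2 change was 0.17, 0.18 and 0.07 (adjusted p = 0.176, 0.146 and 0.610), the last turning to -0.03 without Ddx54KD replicate 3. Foxh1 was at 70.1, 60.9 and 60.1 CPM in Ddx10KD, against 55.0, 47.5 and 52.0 CPM in EGFPKD, a log2 change of 0.31 ± 0.09 (0.0215), again with no overlap. Its log2 change in Ddx24KD, Ddx27KD and Ddx54KD was 0.17, 0.13 and 0.21 (0.213, 0.311 and 0.126). With the replicate block Foxh1 was called in those 3 too (0.0132, 0.0442 and 0.00331). The Foxh1 call in Ddx10KD was lost without Ddx10KD replicate 1 (0.103), EGFPKD replicate 2 (0.107) or EGFPKD replicate 3 (0.0512).

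**Figure D3:**
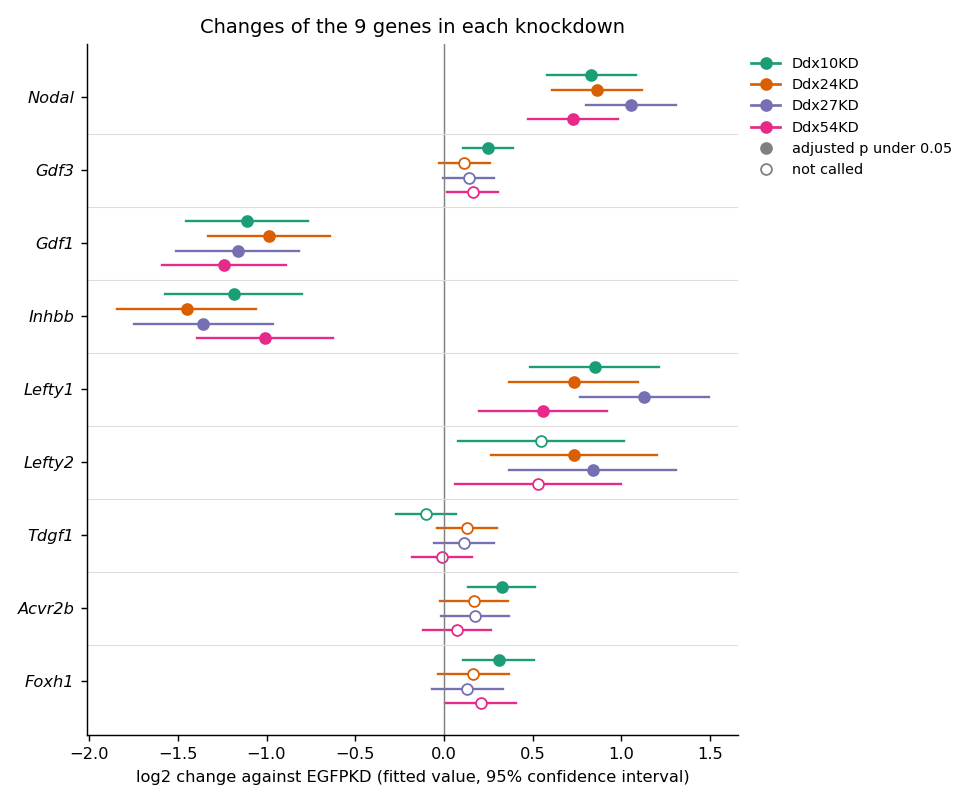
Fitted log2 change against EGFPKD (x axis) with its 95% confidence interval for the 9 genes (y axis) in Ddx10KD, Ddx24KD, Ddx27KD and Ddx54KD; filled points are called at an adjusted p under 0.05. Nodal and Lefty1 are called higher and Gdf1 and Inhbb lower in all 4 knockdowns, and the intervals of Tdgf1 include 0.

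Counted over the 9 genes, 5 were called higher and 2 lower in Ddx10KD, 3 and 2 in Ddx24KD, 3 and 2 in Ddx27KD, and 2 and 2 in Ddx54KD. Changes were common in these comparisons: of all 14335 genes, 31% were called in Ddx10KD, 28.1% in Ddx24KD, 33.4% in Ddx27KD and 24.3% in Ddx54KD. Genes called higher made up 16.5%, 15%, 17.3% and 13.1% of all genes in Ddx10KD, Ddx24KD, Ddx27KD and Ddx54KD, and genes called lower 14.5%, 13.1%, 16.1% and 11.2%. Nodal and Lefty1 were among the 1336 genes (9.32%) called higher in all 4 knockdowns, and Inhbb and the Gdf1 row among the 1048 (7.31%) called lower in all 4. The median log2 change of the 9 genes was 0.31 in Ddx10KD, 0.17 in Ddx24KD, 0.14 in Ddx27KD and 0.16 in Ddx54KD, beside 0.00736, 0.0031, 0.00593 and 0.00813 over all genes. With the replicate block the counts were 6 higher and 2 lower in Ddx10KD, 5 and 2 in Ddx24KD, 6 and 2 in Ddx27KD, and 5 and 2 in Ddx54KD, where 44%, 41.2%, 45.8% and 38.9% of all genes were called. In the test over all 5 groups, 4 of the 9 genes were called (Nodal, Lefty1, Inhbb and the Gdf1 row), beside 29% of all genes, both without the block. With the block this test called all 9, and the share of all genes that it then called was not counted.

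Groups whose 3 libraries do not overlap the 3 control libraries are a separate measure. Nodal and Lefty1 lay above, and Inhbb and the Gdf1 row below, in all 4 knockdowns. Gdf3 lay above in Ddx10KD, Ddx24KD and Ddx54KD, and Acvr2b in Ddx10KD, Ddx24KD and Ddx27KD. Foxh1 lay above in Ddx10KD and Ddx54KD, and Tdgf1 in Ddx27KD. In the remaining knockdowns Gdf3, Acvr2b, Foxh1 and Tdgf1 overlapped the controls. The share of all genes without overlap in all 4 knockdowns was not counted. Of all genes, 23.8% lay wholly above and 22.4% wholly below the controls in Ddx10KD, 21.1% and 19.6% in Ddx24KD, 23.4% and 23.3% in Ddx27KD, and 20.7% and 19.5% in Ddx54KD. Lefty2 overlapped in every knockdown, including the 2 in which it was called.

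The 4 knockdowns were also compared with each other, in 6 pairs. Of the 54 tests of the 9 genes, 0 were called by edgeR, 7 had an unadjusted p under 0.05, and 0 were called by DESeq2 or limma-voom. Few genes of any kind were called in these pairs: 0.412% of all genes between Ddx10KD and Ddx24KD, 0.223% between Ddx10KD and Ddx27KD, 1.43% between Ddx10KD and Ddx54KD, 0.0209% between Ddx24KD and Ddx27KD, 0.0558% between Ddx24KD and Ddx54KD, and 0.014% between Ddx27KD and Ddx54KD. The largest difference was that of Lefty1 between Ddx27KD, at 174 ± 38.5 CPM, and Ddx54KD, at 117 ± 17.7 CPM, a log2 difference of 0.57 (95% confidence interval 0.21 to 0.93; edgeR adjusted p = 0.453). Lefty1 and Nodal had their highest means in Ddx27KD and their lowest knockdown means in Ddx54KD, but no neighbouring pair in that order was called. For Nodal, Ddx27KD at 141 ± 18.9 CPM exceeded Ddx54KD at 113 ± 7.66 CPM by 0.33 on the log2 scale (0.08 to 0.57; 0.506). For Inhbb, Ddx24KD at 18.6 ± 4.31 CPM lay below Ddx54KD at 25.2 ± 4.54 CPM by a log2 difference of -0.44 (-0.84 to -0.04; 0.723).

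With the replicate block, 12 of the 54 tests between knockdowns were called. Ddx27KD was above Ddx54KD in Lefty1 (edgeR adjusted p = 5.12e-04), Nodal (0.0355) and Lefty2 (0.0337) and below it in Inhbb (0.0251). Ddx10KD was below Ddx27KD in Lefty1 (0.0354), Lefty2 (0.0387) and Tdgf1 (0.00589) and above it in Foxh1 (0.0451). Ddx10KD was also below Ddx24KD in Tdgf1 (0.00362) and above Ddx54KD in Lefty1 (0.0119). Ddx24KD was below Ddx27KD in Lefty1 (0.0481) and below Ddx54KD in Inhbb (0.00686). In the same 6 pairs, in the order above, the block called 5.41%, 5.34%, 10.6%, 0.0558%, 1.74% and 2.62% of all genes.

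Beyond the 9 genes, 45 other genes of the Nodal, activin and TGF-beta pathway were listed, of which 38 passed the count filter. Of these, 11 were called higher and 3 lower in Ddx10KD, 9 and 2 in Ddx24KD, 11 and 4 in Ddx27KD, and 5 and 2 in Ddx54KD, and 19 were called in none. Over all genes, 16.5% were called higher and 14.5% lower in Ddx10KD, 15% and 13.1% in Ddx24KD, 17.3% and 16.1% in Ddx27KD, and 13.1% and 11.2% in Ddx54KD, and nothing particular to the pathway is read from these counts. Their median log2 change was 0.09 in Ddx10KD, 0.07 in Ddx24KD, 0.09 in Ddx27KD and 0.10 in Ddx54KD. Called higher in all 4 were Tgfbr2, Tgfbr3, Fst, Ski and Smurf1, and called lower in all 4 was Nedd4l; Tgfbr2 is named here for this count, after its values were seen. With the block the counts were 14 and 6, 12 and 4, 13 and 7, and 10 and 4 in Ddx10KD, Ddx24KD, Ddx27KD and Ddx54KD, where the block called 44%, 41.2%, 45.8% and 38.9% of all genes.

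Among other ligands, 4 of 8 were tested, and Inhba, which encodes the other common activin subunit, reached at most 0.05 TPM and was not tested. Tgfb1, a TGF-beta ligand, was lower, at a log2 change of -0.43 ± 0.09 in Ddx24KD (SE; edgeR adjusted p = 0.00283), -0.56 ± 0.09 in Ddx27KD (2.85e-04) and -0.30 ± 0.09 in Ddx54KD (0.0271), and was not called in Ddx10KD (-0.24; 0.0642; 0.0259 with the block). Its Ddx54KD call was lost without Ddx54KD replicate 2 (0.0697), Ddx54KD replicate 3 (0.0784) or EGFPKD replicate 3 (0.113). Tgfb2, on 13 to 44 counts per library, was called higher in Ddx10KD (1.40 ± 0.31; 0.00296), Ddx24KD (0.94 ± 0.33; 0.0419) and Ddx27KD (1.06 ± 0.32; 0.0184). Inha, the alpha subunit that turns an activin beta subunit into an inhibin, was at 0.719 ± 0.226 CPM in Ddx24KD and 0.600 ± 0.253 CPM in Ddx27KD, against 0.245 ± 0.0904 CPM in EGFPKD, and was called higher in both (0.0144 and 0.0363), and with the block in Ddx54KD (0.0475). The Inha and Tgfb2 calls rest on few counts, and both were lost when single libraries were left out: Inha in Ddx24KD without Ddx24KD replicate 3 (0.0770) or EGFPKD replicate 2 (0.0652), Inha in Ddx27KD without Ddx27KD replicates 2 or 3 (0.191 and 0.0572) or EGFPKD replicates 2 or 3 (0.133 and 0.0780), and Tgfb2 in Ddx24KD without any 1 of its own replicates 2 and 3 (0.0644 and 0.178) or any control library (0.0969, 0.0772 and 0.112). Tgfb2 in Ddx27KD was lost without Ddx27KD replicate 2 (0.141), EGFPKD replicate 1 (0.0515) or EGFPKD replicate 3 (0.0583), and Tgfb2 in Ddx24KD also with DESeq2 (0.0538).

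Of the other receptors, 6 of 7 were tested, and 4, 3, 4 and 2 were called higher in Ddx10KD, Ddx24KD, Ddx27KD and Ddx54KD, with 0 called lower. Of all genes, 16.5%, 15%, 17.3% and 13.1% were called higher in the same order. Tgfbr2 and Tgfbr3, called in all 4, were low, at 0.51 ± 0.09 and 0.35 ± 0.06 TPM in EGFPKD. Tgfbr3, the co-receptor betaglycan, was at 2.92 ± 0.645, 2.28 ± 0.466, 2.59 ± 0.565 and 2.31 ± 0.389 CPM in Ddx10KD, Ddx24KD, Ddx27KD and Ddx54KD, against 1.06 ± 0.200 CPM in EGFPKD. Its log2 change was 1.46 ± 0.24, 1.1 ± 0.25, 1.29 ± 0.25 and 1.12 ± 0.25 (SE; edgeR adjusted p = 2.98e-04, 0.00364, 7.90e-04 and 0.00386). Tgfbr1, a type I receptor, was called higher in Ddx10KD (0.32; 0.00204), Ddx24KD (0.24; 0.0152) and Ddx27KD (0.26; 0.00725), and with the block in Ddx54KD (0.0471). Its Ddx24KD call was lost without Ddx24KD replicate 1 (0.0556), EGFPKD replicate 2 (0.0804) or EGFPKD replicate 3 (0.0554). The activin type II receptor Acvr2a, related to Acvr2b, was called in Ddx27KD at 0.28 (0.0262), and with the block in Ddx10KD (0.00552) and Ddx24KD (0.00507). That Ddx27KD call was lost without Ddx27KD replicate 3 (0.114) or any 1 control library (0.0617, 0.0675 and 0.0617).

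Of the other antagonists, 5 of 6 were tested. Fst, or follistatin, which binds and neutralises activins, was called higher in all 4 knockdowns, while Fstl3 and Pmepa1 were not called in any; with the block Pmepa1 was called higher in Ddx27KD (0.0211) and Ddx54KD (0.00358). Fst was at 1.71 ± 0.312, 2.54 ± 0.162, 2.25 ± 0.443 and 1.82 ± 0.224 CPM in Ddx10KD, Ddx24KD, Ddx27KD and Ddx54KD, against 1.14 ± 0.123 CPM in EGFPKD. Its log2 change was 0.57 ± 0.20, 1.15 ± 0.19, 0.97 ± 0.20 and 0.67 ± 0.20 (SE; edgeR adjusted p = 0.0409, 3.98e-04, 0.00125 and 0.0237). On 28 to 73 counts per library, the Ddx10KD call was lost under 13 alternatives. Among them were DESeq2 (0.0779), limma-voom (0.0575), no count filter (0.0576) and the 2 groups alone (0.0606). It was also lost without Ddx10KD replicates 2 or 3 (0.180 and 0.0579) or any 1 control library (0.130, 0.0556 and 0.0900). The Ddx54KD call was lost without Ddx54KD replicates 1 or 2 (0.0770 and 0.0544) or EGFPKD replicates 1 or 3 (0.0893 and 0.0601).

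**Figure D4:**
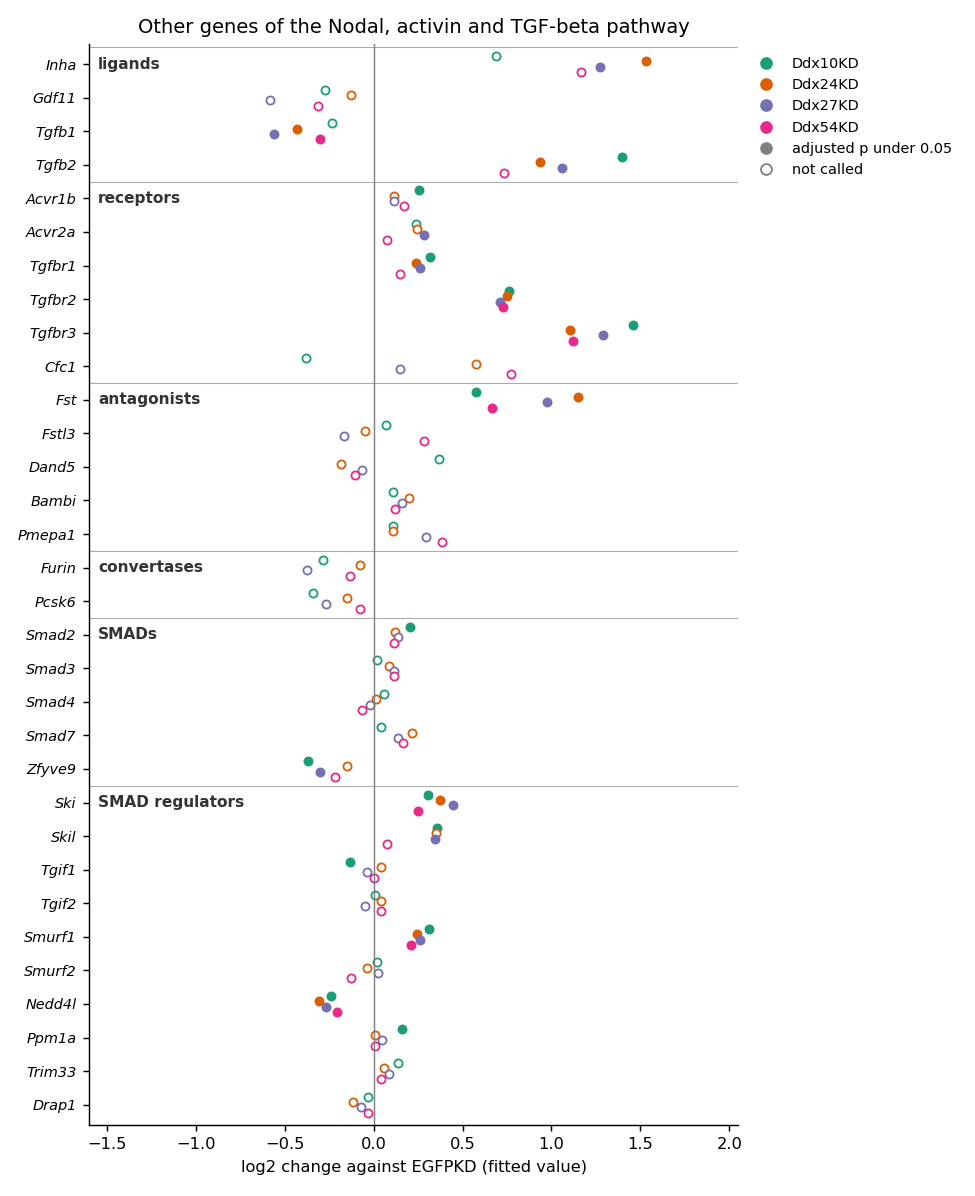
Fitted log2 change against EGFPKD (x axis) of other tested genes of the pathway (y axis), grouped by role and without the genes of the primitive streak, in the 4 knockdowns; filled points are called at an adjusted p under 0.05. Tgfbr3 lies between 1.1 and 1.46 in all 4 knockdowns, and Smad4 between -0.07 and 0.06.

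Among the SMAD genes and their partners, 5 were tested, and among the regulators of SMADs 10. Of the 5, 1 was called higher and 1 lower in Ddx10KD, 0 and 1 in Ddx27KD, and none in Ddx24KD or Ddx54KD. Of the 10 regulators, 4 were called higher and 2 lower in Ddx10KD, 2 and 1 in Ddx24KD, 3 and 1 in Ddx27KD, and 2 and 1 in Ddx54KD. The shares of all genes called higher and lower were 16.5% and 14.5%, 15% and 13.1%, 17.3% and 16.1%, and 13.1% and 11.2% in that order. Smad2, a receptor-regulated SMAD, was called higher in Ddx10KD at 0.20 (edgeR adjusted p = 0.0286), a call lost without Ddx10KD replicates 2 or 3 (0.0735 and 0.116) or EGFPKD replicates 2 or 3 (0.124 and 0.0613), and with the block also in Ddx27KD (0.0366). Smad4, the common partner of the SMADs, was called in none, at log2 changes of 0.06, 0.01, -0.02 and -0.07 in Ddx10KD, Ddx24KD, Ddx27KD and Ddx54KD. Zfyve9, which encodes the SMAD anchor SARA, was called lower in Ddx10KD (-0.37; 0.0125) and Ddx27KD (-0.30; 0.0309), and with the block in Ddx54KD (0.0487). The Ddx27KD call was lost without Ddx27KD replicate 1 (0.148) or any 1 control library (0.0590, 0.0722 and 0.0719). Ski, a repressor of SMAD-driven transcription, was at 184 ± 5.22, 193 ± 5.83, 203 ± 2.25 and 177 ± 1.98 CPM in Ddx10KD, Ddx24KD, Ddx27KD and Ddx54KD, against 149 ± 4.92 CPM in EGFPKD, and was called higher in all 4 (log2 changes 0.31, 0.37, 0.44 and 0.25; adjusted p = 5.39e-05, 1.02e-05, 1.25e-06 and 5.34e-04). Smurf1, a ubiquitin ligase, was called higher at 0.31, 0.24, 0.26 and 0.21, and the ubiquitin ligase Nedd4l lower at -0.24, -0.31, -0.27 and -0.21, in the same order of knockdowns. The Ddx54KD calls were lost for Smurf1 without Ddx54KD replicate 3 (0.112) or EGFPKD replicates 1 or 2 (0.0534 and 0.0819), and for Nedd4l without Ddx54KD replicates 2 or 3 (0.0706 and 0.0752) or EGFPKD replicates 1 or 2 (0.0586 and 0.118). The proprotein convertases Furin and Pcsk6, which cleave Nodal family precursors, were not called; with the block Pcsk6 was called lower in Ddx10KD (1.57e-05), Ddx24KD (0.0175) and Ddx27KD (1.49e-04), and Furin in Ddx27KD (0.0134).

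Among 7 genes switched on by Nodal in the primitive streak and its derivatives, 6 were tested. Eomes, a streak transcription factor gene, was not called in any knockdown. Mixl1, a homeobox gene of the streak, was at 0.331 ± 0.184 CPM in Ddx27KD against 0.713 ± 0.0693 CPM in EGFPKD, and was called lower in Ddx27KD (log2 change -1.09 ± 0.37, SE; edgeR adjusted p = 0.0334). On 4 to 21 counts per library, this call was lost with DESeq2 (0.0627) and without Ddx27KD replicates 1 or 2 (0.142 and 0.0809) or EGFPKD replicates 1 or 3 (0.0872 and 0.0773).

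The BMP branch, which uses other receptors and SMADs, was listed for comparison, and 15 of its 17 genes were tested. Called higher and lower were 3 and 1 in Ddx10KD, 3 and 0 in Ddx24KD, 3 and 1 in Ddx27KD, and 2 and 0 in Ddx54KD. Over all genes these shares were 16.5% and 14.5%, 15% and 13.1%, 17.3% and 16.1%, and 13.1% and 11.2%. The ligand gene Bmp7 was at 6.33 ± 0.898, 7.57 ± 2.51, 9.70 ± 0.732 and 6.92 ± 1.3 CPM in Ddx10KD, Ddx24KD, Ddx27KD and Ddx54KD, against 2.24 ± 0.625 CPM in EGFPKD. Its log2 change was 1.5, 1.76, 2.11 and 1.63 (edgeR adjusted p = 2.80e-04, 7.11e-05, 6.77e-06 and 1.75e-04). The ligand gene Bmp4 was called lower in Ddx10KD, at 53.9 ± 3.96 CPM, and in Ddx27KD, at 61.2 ± 6.14 CPM, against 83.9 ± 4.03 CPM in EGFPKD (log2 changes -0.64 and -0.45; 6.31e-04 and 0.00614), and in Ddx24KD with the block (-0.29; 8.76e-04) or without Ddx24KD replicate 2 (-0.46; 0.00160). Smad5, a SMAD of this branch, was called higher in all 4 at 0.46, 0.40, 0.45 and 0.33, and its Ddx54KD call was lost without Ddx54KD replicate 3 (0.0877) or EGFPKD replicates 2 or 3 (0.0635 and 0.0629).

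For each of the 9 genes, the 2 genes with the most similar pattern were found among 11609 genes, as the smallest root mean square difference of centred log2 CPM over the 15 libraries. For Nodal these were Rab23 (difference 0.0892, where the root mean square of Nodal itself was 0.388) and Ece1 (0.103). Rab23 had log2 changes of 0.86, 0.90, 1.06 and 0.77 in Ddx10KD, Ddx24KD, Ddx27KD and Ddx54KD. That these lie close to the Nodal values follows from the choice of Rab23 by its pattern in the same libraries. For the Gdf1 row they were Phgdh (0.124) and Chd3 (0.165), for Inhbb Napsa (0.174), for Lefty1 Hspa1a (0.163) and Nav2 (0.173), and for Lefty2 Nav2 (0.173) and Irf1 (0.199). Those of Tdgf1 were Zfp35 and Urm1, of Gdf3 Dda1 and Ubxn6, of Foxh1 Ncoa5 and Ifrd2, and of Acvr2b Nr2c2 and Ric3, at differences of 0.0482 to 0.0759 around genes that hardly varied. All comparisons share the EGFPKD libraries, and likeness here says nothing on function.

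In the authors' deposited tables of each knockdown, Nodal, Inhbb and the Gdf1 row had a posterior probability of differential expression of 1 in all 4 knockdowns, apart from 0.99992 for Nodal in Ddx24KD. In the authors' deposited tables Lefty1 had 1, 0.753, 0.999 and 0.663 in Ddx10KD, Ddx24KD, Ddx27KD and Ddx54KD, and Lefty2 0.0238, 0.262, 0.159 and 0.00588. For the other 3 genes called higher in Ddx10KD, the authors' deposited table gave 1.74e-08 for Acvr2b, 0.946 for Foxh1 and 0.884 for Gdf3. Fold changes of the Ddx24KD table in the authors' deposited tables lay further from the fitted values than those of the other 3, at a median difference of 0.0411 on the log2 scale, against 0.0039 to 0.00683. For Inhbb in Ddx24KD the log2 ratio in the authors' deposited table was -1.31, where the fit gave -1.45.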

How the data were processed

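Poly(A) RNA of E14 cells was measured in 15 libraries. Per the labels' protocols, cells were incubated with 400 ng of small interfering RNA for 16 h and harvested at 48 h. The authors deposited, per the file headers and the submitters' processing notes, RSEM expected counts on mm10 (not scaled for depth), TPM and FPKM (both scaled for length and depth) and transcript lengths for each library. The authors also deposited EBSeq tables, in which each gene has a posterior probability and a fold change, the ratio of 2 conditions. FPKM was not used. Not given in the sources used here: the versions of RSEM and of the aligner, the annotation release and the EBSeq settings.

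Expected counts were rounded, filtered with filterByExpr (genes kept held 99.97% of counts), scaled by TMM and tested by edgeR's quasi-likelihood method, with the 15 libraries in 1 fit. CPM levels carry the SD of 3 libraries, and SE is the log2 change divided by the root of F. Self-test data were simulated for Ddx10KD against EGFPKD. DESeq2 1.42.0, limma 3.58.1 and edgeR 4.0.16 were run in R 4.3.3. The genes and lists were chosen with earlier results of these data known. Named genes are the 9, up to 3 per other list by smallest p in the 5-group test, the 4 targets, Thy1 and the other markers, and 2 genes most like each of the 9. Some items that this rule names are not reported here.

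After group means were removed, libraries of the same replicate number in different groups correlated at 0.106 to 0.335 in all 30 pairs, above the 0.1 required, and other pairs at -0.249 to 0.053. The pairing comes from the data and the numbers in the labels, and the replicate block is an alternative. A chi-squared test of counts found no pair of replicates alike within sampling noise. The other alternatives were RLE and upper-quartile factors, no filter, 10 CPM in at least 3 libraries, limma-voom, limma on log2(TPM + 1), DESeq2, the 2 groups alone, and each library left out. Summing the Lefty genes and leaving out all libraries of replicate number 2 were added after the data were seen.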

Additional observations from a re-analysis of the deposited data

How the results depend on the processing

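Nodal, Inhbb and the Gdf1 row kept their direction and call in all 4 knockdowns under every alternative in which they were tested, as did Lefty1 in Ddx10KD, Ddx24KD and Ddx27KD; Ski, Tgfbr3 and Bmp7 also kept their calls. No called value changed sign. Values that were not called did so 66 times over all named genes and alternatives, 42 of them among the 9 genes (6 against EGFPKD, all Tdgf1 or Acvr2b in Ddx54KD, and 36 between knockdowns), with a main log2 value of at most 0.176 in size. Lefty2 in Ddx24KD, Lefty1 in Ddx54KD, and Gdf3 and Foxh1 in Ddx10KD lost calls when single libraries were left out, as given above.

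With the replicate block, which takes up the pairing, the 9 genes gave 8 calls in Ddx27KD (5 without), 7 in Ddx54KD (4 without) and 9 over the 5 groups (4 without). Of all genes, the block called 45.8% in Ddx27KD and 38.9% in Ddx54KD, and its share over the 5 groups was not counted. Between knockdowns the block gave 1, 4, 1, 1, 1 and 4 calls among the 9 genes and 776, 766, 1517, 8, 250 and 375 among all genes, for Ddx10KD against Ddx24KD, Ddx27KD and Ddx54KD, Ddx24KD against Ddx27KD and Ddx54KD, and Ddx27KD against Ddx54KD. Without the block these were 0 each, and 59, 32, 205, 3, 8 and 2. Against EGFPKD, the block called 5570 genes in Ddx54KD, where 3483 were called without it.

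In the same order of pairs, DESeq2 called 173, 168, 440, 5, 20 and 29 genes. Fits of the 2 groups alone gave 18 genes for Ddx10KD against Ddx24KD, 13 against Ddx27KD and 120 against Ddx54KD, and 2 for Ddx24KD and 14 for Ddx27KD against Ddx54KD. Limma on log2(TPM + 1) gave 91 for Ddx10KD against Ddx24KD, and 5 each for Ddx24KD against Ddx27KD and Ddx54KD, the last also 5 under the 10 CPM filter. Without the libraries of replicate number 2, Ddx10KD gave 7, 4 and 38 genes against Ddx24KD, Ddx27KD and Ddx54KD, and Ddx27KD 5 against Ddx54KD; Ddx54KD against EGFPKD gave 2161 genes, and 4 of the 9 genes were called in Ddx10KD (7 with all libraries), with Gdf3 (0.107), Foxh1 (0.147) and Acvr2b (0.0810) lost. The cause of these differences was not tested. Fits without replicate number 2 also rest on fewer libraries, which cannot be told apart from the loss of those particular libraries.

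Leaving out each library in turn gave 6 to 7, 4 to 5, 5 to 6 and 3 to 5 called members in Ddx10KD, Ddx24KD, Ddx27KD and Ddx54KD against EGFPKD, 4 to 5 over the 5 groups and 0 between knockdowns. Genes called ranged from 3193 to 4765, 2866 to 4307, 3880 to 5138 and 2232 to 3868 against EGFPKD, the lowest in Ddx54KD without its replicate 3. Between knockdowns they ranged from 28 to 60, 8 to 68, 44 to 342, 2 to 4, 3 to 26 and 2 to 11. Without Ddx24KD replicate 2, the calls of the 9 genes in Ddx24KD were the same, with Nodal at 1.00 and Inhbb at -1.62 on the log2 scale. The Gdf1 row, at 87 to 262 counts per library, has the least depth behind it.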
